A study of Mus musculus with 23 samples.

Results

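Monocytes reach a tumor along gradients of chemokines, small secreted proteins that bind G protein-coupled receptors on leukocytes. *Ccl2*, *Ccl7*, *Ccl8* and *Ccl12* encode the monocyte chemoattractant proteins of the mouse, of which *Ccl2* and *Ccl7* are known ligands of *Ccr2*, the receptor that brings inflammatory monocytes out of the bone marrow. *Ccl3* and *Ccl4* encode the macrophage inflammatory proteins, of which *Ccl3* is a ligand of *Ccr1*. *Csf1* encodes macrophage colony-stimulating factor, the ligand of *Csf1r* on which most tissue macrophages depend. The 9 genes *Ccl2*, *Ccl7*, *Ccl8*, *Ccl12*, *Ccl3*, *Ccl4*, *Ccr1*, *Ccr2* and *Csf1* were followed here, out of 24940 gene symbols in the tables. They form a list of names that was drawn up with earlier results of these data known.

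Each of 5 mouse cancer cell lines was grown under the skin of the flank of adult female C57BL/6 mice, from which the lines also derive, after injection of 500000 cells. B16 (the B16-F10 line) is a melanoma, EO771 (EO771.LMB) a breast carcinoma, LL2 a lung carcinoma, MC38 a colon carcinoma and Pan02 a pancreatic carcinoma. No agent or engineered allele was used in any group, and each tumor type rests on 1 transplanted line. RNA came from a fragment of the whole tumor (3 tumors per line, 15 in all), so that cancer, stromal and immune cells were read together. For EO771, LL2, MC38 and Pan02, RNA also came from cancer-associated fibroblasts (CAFs), which were sorted from digested tumors as FAP+ cells (FAP, fibroblast activation protein, is a surface protease of many CAFs) after depletion of CD45+ leukocytes (2 libraries per line, 8 in all). No B16 CAF library was analysed here. The titles of the 3 Pan02 tumors read Pan01, whereas their cell line label reads Pan02, which is used here. The labels do not say which tumors came from separate mice, and p-values therefore measure the spread between these samples.

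Tumor values are CPM (counts relative to library size, scaled by the trimmed mean of M values), from libraries of 10035173 to 21946486 counts. CAF values are RPKM as deposited (CPM per kilobase of transcript), from libraries in which the smallest step was 0.0219 to 0.0540 CPM. Melanocyte markers (*Tyr*, *Dct*, *Pmel*, *Mlana*) summed to 8457 to 10440 RPKM in B16 tumors and to at most 11.8 RPKM in the other tumors. The CAF label was checked against 9 fibroblast markers, all of which were above 0 in every CAF library. Their summed level was 7011 to 9733 RPKM in EO771 and LL2 CAFs, 6551 and 1530 RPKM in MC38 CAFs 1 and 2, and 3880 and 2386 RPKM in Pan02 CAFs 1 and 2. Pan02 CAFs thus held less of these markers than whole Pan02 tumors (8166 to 9086 RPKM). Epithelial markers (*Epcam*, *Krt8*, *Krt18*, *Krt19*, *Cdh1*) summed to 832 to 1121 RPKM in Pan02 CAFs and 494 to 500 RPKM in EO771 CAFs. They summed to 200 to 209 RPKM in LL2 CAFs and 1.72 to 3.73 RPKM in MC38 CAFs. In EO771 CAFs the sum was mostly *Krt8* (492 and 495 RPKM). Leukocyte markers (*Ptprc*, *Cd52*, *Cd53*, *Laptm5*, *Coro1a*, *Lcp1*) were above 0 in every CAF library and summed to 36.7 to 40.4 RPKM in EO771 CAFs, 18.6 to 30.1 RPKM in Pan02 CAFs, 2.45 to 3.02 RPKM in LL2 CAFs and 2.65 to 3.44 RPKM in MC38 CAFs. In Pan02 CAFs this sum was mostly *Cd53* (16.1 and 28.1 RPKM), and without it the other 5 markers summed to 2.00 to 2.46 RPKM in Pan02, 1.84 to 2.43 RPKM in LL2, 2.61 to 3.22 RPKM in MC38 and 29.8 to 32.7 RPKM in EO771 CAFs. CAF results are therefore given beside these sums, and the counts that rest on EO771 or Pan02 CAFs are repeated without them.

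In whole tumors, the ligands *Ccl2* and *Ccl7* were high in LL2 and MC38 and low in B16. *Ccl2* measured 208, 353 and 226 CPM in the 3 LL2 tumors and 178, 208 and 190 CPM in the 3 MC38 tumors. It measured 35.7, 32.2 and 56.7 CPM in EO771, 28.6, 21.7 and 21.1 CPM in B16, and 7.13, 44.8 and 28.9 CPM in Pan02. All 6 LL2 and MC38 tumors stood above all 9 others, while the Pan02 range overlapped those of EO771 and of B16, which did not overlap each other. In the order of the mean levels (LL2, MC38, EO771, Pan02, B16), only the step from MC38 to EO771 passed the test, at 2.21 on the log2 scale (standard error 0.46, edgeR adjusted p = 0.0014). The adjusted p is that of edgeR's quasi-likelihood test with Benjamini-Hochberg adjustment over all 15722 genes tested, and a call is an adjusted p under 0.05.

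**Figure D1:**
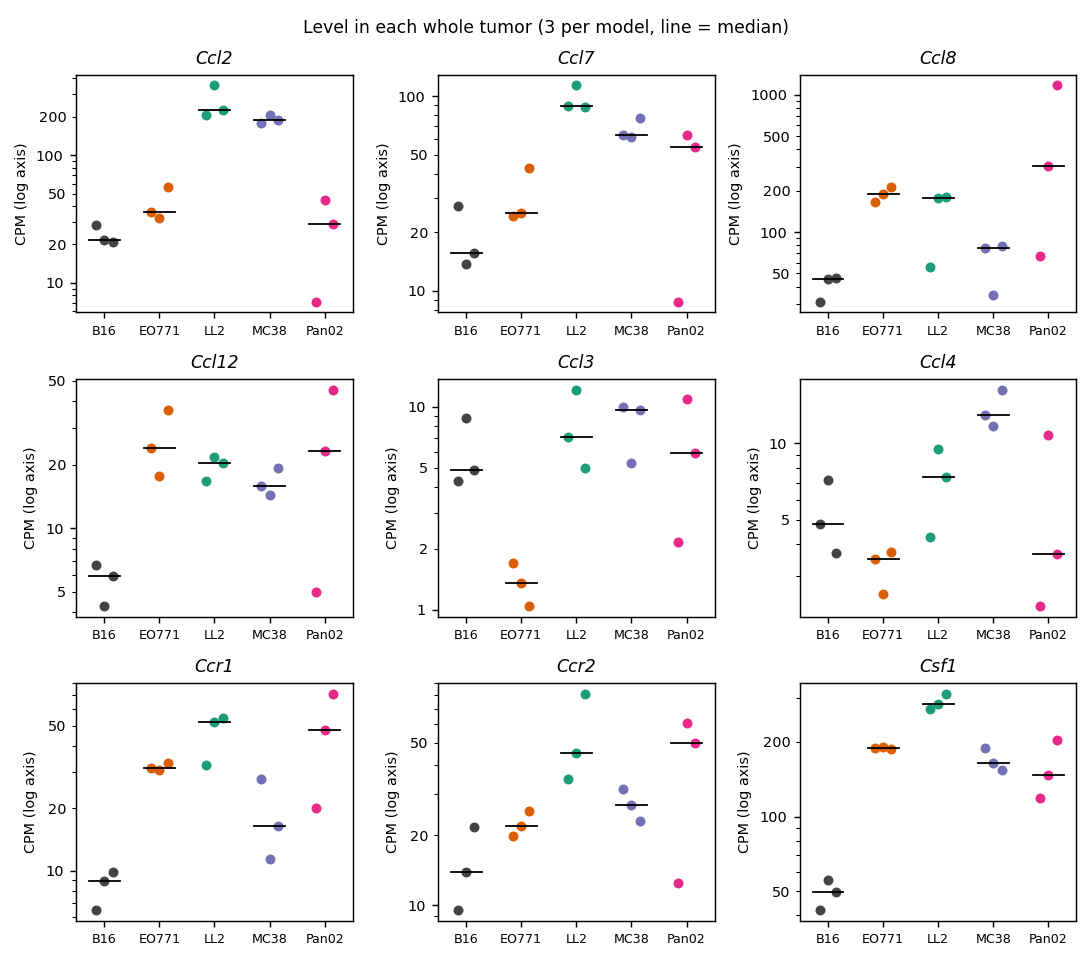
CPM (log axis) of the 9 genes in each of 15 whole tumors, by model; points are tumors 1 to 3 from left to right and lines are medians. *Ccl2* lies at 178 to 353 CPM in LL2 and MC38 and at 7.13 to 56.7 CPM elsewhere, and *Csf1* lies at 42.0 to 55.3 CPM in B16 and at 118 CPM or more elsewhere.

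*Ccl7* lies next to *Ccl2* on chromosome 11 (mm10, 82045712 to 82047523, plus strand, with *Ccl2* at 82035577 to 82037452, plus strand). It measured 89.6, 114 and 88.0 CPM in LL2 and 63.2, 61.7 and 77.4 CPM in MC38. In Pan02 it was 8.79 CPM in tumor 1 and 63.3 and 54.6 CPM in tumors 2 and 3. In EO771 it was 24.1, 25.1 and 42.9 CPM, and in B16 27.4, 13.7 and 15.7 CPM. The LL2 tumors stood above all others, but no step between neighbours in the order of means passed the test (LL2 to MC38 0.53, standard error 0.49, edgeR adjusted p = 0.411). LL2 and Pan02, the model of middle rank, differed by a log2 fold change of 1.21 for *Ccl7* (standard error 0.50, edgeR adjusted p = 0.0616) and by 3.29 for *Ccl2* (standard error 0.48, edgeR adjusted p = 0.0001). The *Ccl7* difference passed the threshold with DESeq2 (adjusted p = 0.031), with total-count scaling (0.0484), without Pan02 tumor 1 (0.048) and without Pan02 tumor 2 (0.034).

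*Ccl8*, a further ligand of the same cluster, was ordered differently. Its median was highest in Pan02 (67.6, 304 and 1169 CPM), followed by EO771 (165, 190 and 212 CPM) and LL2 (56.1, 178 and 179 CPM). It was lower in MC38 (77.0, 35.0 and 79.1 CPM) and B16 (31.2, 45.4 and 46.6 CPM). Pan02 tumor 1 lay below every EO771 tumor and Pan02 tumor 3 above every other tumor, and no pair of neighbours passed the test. *Ccl12*, whose gene lies beside *Ccl8*, measured 24.0, 17.7 and 36.5 CPM in EO771, 4.98, 23.2 and 45.5 CPM in Pan02, 16.8, 21.9 and 20.3 CPM in LL2 and 15.9, 14.4 and 19.2 CPM in MC38. In B16 it measured 6.68, 4.29 and 5.94 CPM, a range that only Pan02 tumor 1 entered. The step from MC38 to B16 was 1.56 (log2, standard error 0.55, edgeR adjusted p = 0.0246), and it lost the call without B16 tumor 2 or 3 or MC38 tumor 3 (adjusted p = 0.0569 to 0.0847).

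*Ccl8* and *Ccl12* lie side by side on chromosome 11 (82115185 to 82116799 and 82101845 to 82103399, both on the plus strand). Their levels varied together across the 15 tumors (Pearson r of log2(CPM + 1) = 0.79, and 0.85 for deviations from the model means, given as a description, since tumors of 1 model share their line). Over the 12 tumors without Pan02, the deviations correlated at only 0.34, so the 0.85 rested largely on the Pan02 tumors. The 250 bases before each start site are shown because TATAAA, the core of the TATA box, stands in capitals at nearly the same place in both, beginning 32 and 31 bases before the start. *Csf1* is shown for contrast, with a match to the NF-kB consensus in capitals that begins 154 bases before its start. Sequences are from RefSeq (GRCm38.p6), read 5′ to 3′ on the strand of the gene, for *Ccl8* chr11:82114935-82115184 (plus), *Ccl12* chr11:82101595-82101844 (plus) and *Csf1* chr3:107760470-107760719 (minus).
Ccl8: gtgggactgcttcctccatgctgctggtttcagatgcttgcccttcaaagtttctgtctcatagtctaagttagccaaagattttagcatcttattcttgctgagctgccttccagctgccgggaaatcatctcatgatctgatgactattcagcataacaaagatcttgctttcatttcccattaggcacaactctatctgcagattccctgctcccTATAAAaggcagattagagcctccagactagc
Ccl12: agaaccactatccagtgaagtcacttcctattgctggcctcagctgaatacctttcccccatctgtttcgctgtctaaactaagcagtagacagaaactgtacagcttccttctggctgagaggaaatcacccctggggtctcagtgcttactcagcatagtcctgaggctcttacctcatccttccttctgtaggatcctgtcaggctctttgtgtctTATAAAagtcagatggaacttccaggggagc
Csf1: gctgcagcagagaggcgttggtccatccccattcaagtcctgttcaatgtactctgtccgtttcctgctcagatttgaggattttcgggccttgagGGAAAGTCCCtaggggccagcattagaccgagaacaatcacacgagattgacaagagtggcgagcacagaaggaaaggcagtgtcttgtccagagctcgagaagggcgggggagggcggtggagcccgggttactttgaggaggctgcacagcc
Promoter windows (250 bases before to 50 after the start) were matched for 6 of the 9 genes, and those of *Ccl2*, *Ccl7* and *Ccl4* were not. On either strand, TATAAA was found in *Ccl8* and *Ccl12* and in 13.6% of all 32851 windows, and the NF-kB consensus in *Csf1* and *Ccr1* and in 8.46% of windows. TGANTCA (AP-1) and TTCNNNGAA (STAT) were in none of the 6 windows, against 7.81% and 8.30% of all windows. None of the 6 windows held more than 1 of these motifs. A match describes letters, not binding.

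*Ccl3* and *Ccl4* lie further along chromosome 11 (83647843 to 83649378, minus strand, and 83662584 to 83664683, plus strand) and were the least abundant ligands per length in tumors. *Ccl3* measured 1.69, 1.36 and 1.05 CPM in EO771, below every other tumor. It measured 4.32, 8.77 and 4.89 CPM in B16, 7.07, 12.2 and 5.01 CPM in LL2, 9.92, 5.26 and 9.58 CPM in MC38, and 2.15, 10.9 and 5.88 CPM in Pan02. The EO771 values rested on 12 to 31.5 counts. *Ccl4* was highest in MC38 (12.9, 11.6 and 16.2 CPM), above every other tumor, and reached 2.55 to 3.75 CPM in EO771 and 2.30 to 10.7 CPM in the 9 B16, LL2 and Pan02 tumors. For *Ccl3* the step from B16 to EO771 was 2.11 (log2, standard error 0.55, edgeR adjusted p = 0.00475), and no step between neighbours passed the test for *Ccl4*.

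The receptors *Ccr1* and *Ccr2* lie on chromosome 9 (123962126 to 123968692, minus strand, and 124102183 to 124109140, plus strand). *Ccr1*, carried by monocytes, macrophages and neutrophils, measured 6.48, 8.95 and 9.93 CPM in B16, below every other tumor. It was 32.5, 52.4 and 54.8 CPM in LL2, 20.1, 47.6 and 71.3 CPM in Pan02, 31.1, 30.7 and 33.1 CPM in EO771 and 27.7, 11.4 and 16.4 CPM in MC38. *Ccr2* was 35.0, 45.2 and 81.1 CPM in LL2 and 9.53, 13.9 and 21.6 CPM in B16, with EO771 (19.8 to 25.3 CPM), MC38 (23.0 to 31.7 CPM) and Pan02 (12.5 to 60.5 CPM) between them and overlapping. No exon of the 9 genes overlapped that of another gene.

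*Csf1* (chromosome 3, 107741048 to 107760469, minus strand) measured 272, 284 and 313 CPM in LL2, above every other tumor, and 42.0, 55.3 and 49.5 CPM in B16, below every other tumor. EO771 (187 to 191 CPM), MC38 (154 to 189 CPM) and Pan02 (118 to 204 CPM) overlapped. The steps from LL2 to EO771 (0.62, standard error 0.17, edgeR adjusted p = 0.00863) and from Pan02 to B16 (1.67, standard error 0.17, edgeR adjusted p = 1.89e-06) passed the test. Of 3 listed *Csf1* transcripts, the shortest had 0.659 to 0.876 of the longest one's level per length in tumors, where the ranges of the models overlapped, and 0.546 to 0.820 in CAFs. Among CAFs, MC38 reached lowest (0.546 to 0.708), and the EO771 range (0.691 to 0.800) overlapped those of MC38 and Pan02 (0.761 to 0.762). Neighbours also differed for *Ccr1*, from MC38 to B16 (1.12, standard error 0.41, edgeR adjusted p = 0.0294), a call that was lost without B16 tumor 1 or 2 or MC38 tumor 1 (adjusted p = 0.0622 to 0.166). In all, 6 of 36 steps between neighbouring models passed the test over the 9 genes in tumors. Neighbours are the closest models in each gene's own order, so no share over all genes is set beside this count. The levels of 2 genes in B16 lay below those of all other tumors (12.2% of all genes tested did), of 1 gene in EO771 (7.02%), while 2 genes in LL2 (5.16%) and 1 in MC38 (7.68%) lay above all others.

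All 9 genes differed among the 5 tumor models, but so did 91.1% of all genes tested, and the number by itself is no result about them. Each model was next compared with the mean over the other 4. In B16, 7 of the 9 genes were lower and 0 were higher, where 31.6% of all genes tested were lower and 31.9% higher. These were *Csf1* (log2 fold change -1.99, standard error 0.15, edgeR adjusted p = 8.72e-08), *Ccr1* (-1.98, 0.36, 0.000331), *Ccl2* (-1.87, 0.40, 0.00119), *Ccl12* (-1.93, 0.48, 0.00328), *Ccl7* (-1.52, 0.44, 0.00858), *Ccl8* (-2.05, 0.65, 0.0139) and *Ccr2* (-1.17, 0.40, 0.0208). *Ccl3* (0.29) and *Ccl4* (-0.31) did not pass the test. The median over the 9 genes was -1.87, against -0.03 over all genes tested. *Ccl8* lost the call without B16 tumor 1 (adjusted p = 0.0616) and *Ccr2* without B16 tumor 1 (0.104) or 2 (0.0747).

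Myeloid RNA moved with this difference. The summed level of 13 monocyte and macrophage markers was 527 to 971 RPKM in B16 and 1522 to 7239 RPKM in the other tumors, and 12 of the 13 were lower in B16. All 6 leukocyte markers and all 9 fibroblast markers were lower in B16 too. In whole tumors, fewer cells of a type and less RNA per cell cannot be told apart. Set against *Ptprc* (CD45, carried by all leukocytes) within each tumor, none of the 9 genes separated B16 from all other tumors. No share over all genes is set beside this, and the part of leukocyte RNA in the B16 differences was not tested. The ratio of *Ccl2* to *Ptprc* was 0.473 to 1.08 in B16 and 0.431 to 0.744 in EO771, and was 1.82 to 6.82 in LL2 and 1.56 to 2.50 in MC38. It was lowest in Pan02, at 0.214 to 0.400, below all other tumors, as only 0.407% of all genes were. *Ccl3* per *Ptprc* was lowest in EO771 (0.0201 to 0.0363, 3.21% of genes) and *Ccl8* per *Ptprc* was lowest in MC38 (0.426 to 0.768, 8.82% of genes).

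In LL2, 5 of the 9 genes were higher and 0 lower, where 23.3% of all genes were higher and 18.9% lower. *Ccl2* was higher by 2.47 (standard error 0.31, edgeR adjusted p = 2.77e-05), *Csf1* by 1.21 (0.12, 4.08e-06), *Ccl7* by 1.44 (0.36, 0.00557), *Ccr1* by 1.09 (0.29, 0.00824) and *Ccr2* by 1.12 (0.34, 0.0171). *Ccr2* lost the call without LL2 tumor 3 (0.70, adjusted p = 0.178). Monocyte and macrophage markers summed to 1982 to 3480 RPKM in LL2, and 3 of the 13 (*Cd14*, *Itgam*, *Lyz2*) were higher there.

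In MC38, *Ccl2* (1.90, standard error 0.31, edgeR adjusted p = 0.00021) and *Ccl4* (1.42, standard error 0.34, edgeR adjusted p = 0.00316) were higher, 2 of 9 where 27.0% of all genes were, and 0 were lower, where 24.4% were. With total-count scaling, under which the median of all genes in MC38 shifted by 0.14 on the log2 scale, *Ccl3* (adjusted p = 0.036) and *Csf1* (0.39, adjusted p = 0.0199) passed as well. Without Pan02 tumor 1, 6 genes passed in MC38, since *Ccl3* (0.76, adjusted p = 0.0483) and *Ccl7* (0.67, 0.0118) were then also higher and *Ccl8* (-1.39, 0.0144) and *Ccr1* (-0.66, 0.036) lower. In EO771, *Csf1* was higher (0.44, standard error 0.13, edgeR adjusted p = 0.0101; 27.2% of all genes were higher), and *Ccl3* (-2.35, standard error 0.49, edgeR adjusted p = 0.00121) and *Ccl4* (-1.15, standard error 0.41, edgeR adjusted p = 0.0302) were lower, where 27.0% of all genes were. The higher *Csf1* was a difference from B16, since *Csf1* in EO771 was lower than in LL2 and did not pass the test against MC38 (0.16, edgeR adjusted p = 0.454) or Pan02 (0.27, edgeR adjusted p = 0.168). The *Ccl4* call was lost without any 1 of the 3 EO771 tumors (adjusted p = 0.0655 to 0.121), and *Ccl2*, at -0.86 in EO771, passed as lower with DESeq2 (-0.85, adjusted p = 0.0276). Without Pan02 tumor 1, 6 genes passed in EO771, with *Ccl12* (0.74, edgeR adjusted p = 0.012) added as higher and *Ccl2* (-0.95, 0.002) and *Ccl7* (-0.74, 0.011) as lower. Without Pan02 tumor 3, 5 genes passed, with *Ccl12* (1.07, edgeR adjusted p = 0.0122) and *Ccl8* (1.08, 0.0296) added as higher. No share over all genes was set beside the counts with a tumor left out, so those counts are no result about the 9 genes.

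In Pan02, *Ccl8* (2.50, standard error 0.49, edgeR adjusted p = 0.0006) and *Ccr1* (1.08, standard error 0.29, edgeR adjusted p = 0.00554) were higher, where 32.5% of all genes were, and *Ccl2* was lower (-1.65, standard error 0.40, edgeR adjusted p = 0.00274), where 28.1% were. The first 2 rested on Pan02 tumor 3, without which *Ccl8* stood at 1.03 (adjusted p = 0.0628) and *Ccr1* at 0.62 (adjusted p = 0.103). Without Pan02 tumor 1, 5 genes passed, with *Ccl12* (1.20, edgeR adjusted p = 0.000928) and *Ccr2* (1.03, 0.00376) added as higher. Again no share over all genes was set beside this count. Monocyte and macrophage markers followed the same tumors, with sums of 1932, 4392 and 7239 RPKM in Pan02 tumors 1, 2 and 3, whereas fibroblast markers did not (8348, 9086 and 8166 RPKM). The part of myeloid RNA in these differences was not tested. *Ccl2* kept its call in Pan02 whichever 1 of the 15 tumors was left out, with fold changes of -2.24 to -1.21.

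**Figure D2:**
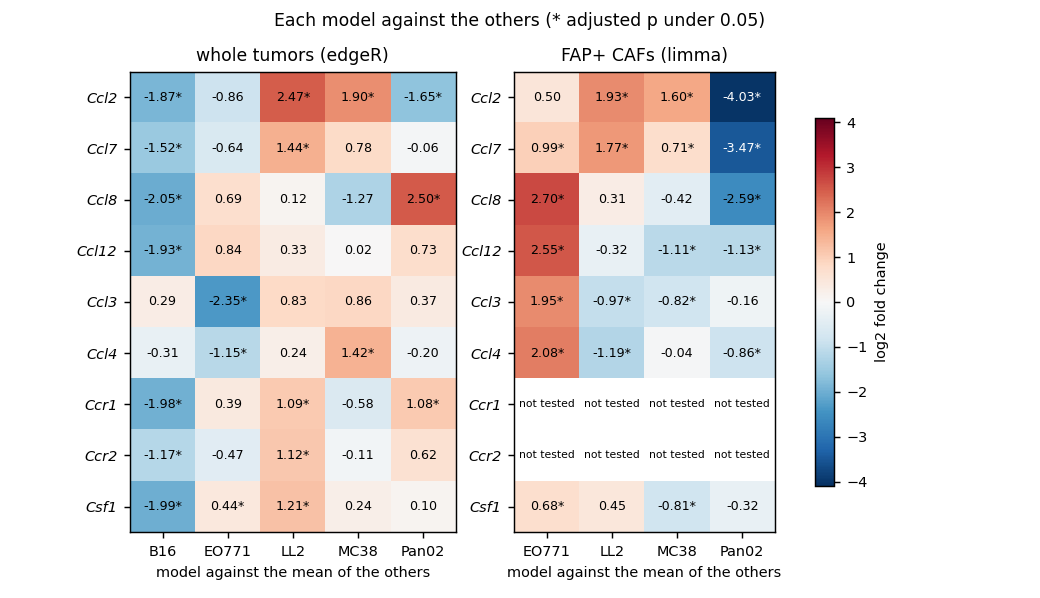
Log2 fold change between each model and the others in tumors (left, edgeR) and CAFs (right, limma on log2(RPKM + 1)), with an asterisk for adjusted p under 0.05. B16 holds 7 lower genes, asterisks of *Ccl12*, *Ccl3* and *Ccl4* in CAFs belong to genes that reached the minimum level only with EO771 CAFs, and *Ccl2* and *Ccl7* reach -4.03 and -3.47 in Pan02 CAFs.

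Sorted CAFs held *Ccl2*, *Ccl7* and *Csf1* at high levels in most models, while the receptors were close to 0. *Ccl2* measured 319 and 277 RPKM in LL2 CAFs, 234 and 267 RPKM in MC38 CAFs and 124 and 159 RPKM in EO771 CAFs. It measured 18.9 and 8.06 RPKM in Pan02 CAFs. *Ccl7* measured 128 and 120 RPKM in LL2, 70.0 and 96.2 RPKM in EO771, 73.8 and 68.4 RPKM in MC38, and 10.9 and 4.65 RPKM in Pan02. For both genes the Pan02 libraries lay below all others and the LL2 libraries above all others. From EO771 to Pan02, *Ccl2* dropped by 3.40 on the log2(RPKM + 1) scale (standard error 0.34, limma adjusted p = 0.000185), and from MC38 to Pan02, *Ccl7* dropped by 3.13 (standard error 0.32, limma adjusted p = 0.00018). No step between neighbours among the 3 other models passed the test for either gene.

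*Ccl8* measured 57.5 and 83.6 RPKM in EO771 CAFs, 21.5 and 17.2 RPKM in LL2 CAFs, 31.5 and 4.91 RPKM in MC38 CAFs, and 4.46 and 2.71 RPKM in Pan02 CAFs. MC38 CAF 2, the library with the low *Ccl8*, was also the one with the low sum of fibroblast markers, 9 of 9 of which were lower in it than in MC38 CAF 1. Its 13 monocyte and macrophage markers summed to 50.1 RPKM against 137 RPKM in MC38 CAF 1, but this was mostly *Plac8* (30.9 against 116 RPKM), and the other 12 summed to 19.2 and 21.4 RPKM. The difference of MC38 from the mean of the others in *Ccl8* (-0.42, limma adjusted p = 0.536) had no stable direction, with 0.81 without MC38 CAF 2 (limma adjusted p = 0.0313) and -1.65 without MC38 CAF 1 (limma adjusted p = 0.00157). *Ccl12* was 8.27 and 6.06 RPKM in EO771 and at most 1.28 RPKM in any other CAF library. *Ccl3* (4.06 and 3.24 RPKM) and *Ccl4* (4.57 and 5.14 RPKM) were also highest in EO771, and were at most 0.551 and 1.15 RPKM elsewhere. LL2 CAF 1 and MC38 CAF 1 were at 0 for *Ccl3* and LL2 CAF 2 for *Ccl4*, at a depth where 1 smallest step was the value of *Ccl3* in LL2 CAF 2 (0.028 RPKM).

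*Ccr1* measured 0.546 and 0.618 RPKM in EO771 CAFs and at most 0.119 RPKM in the others. *Ccr2* measured 0.141 and 0.313 RPKM in EO771 CAFs, 0 in both MC38 libraries and at most 0.016 RPKM elsewhere. Both receptors stayed under the minimum of 1 RPKM in 2 libraries and were not tested among CAFs. With no minimum, both were higher in EO771 CAFs (0.60, standard error 0.04, limma adjusted p = 0.000278, and 0.28, standard error 0.05, limma adjusted p = 0.00896, on the log2(RPKM + 1) scale). *Csf1* was 72.5 and 77.7 RPKM in EO771, 78.9 and 56.3 RPKM in LL2, 47.9 and 40.9 RPKM in Pan02, and 37.5 and 30.8 RPKM in MC38, the lowest of the 4. The step from LL2 to Pan02 was 0.58 (standard error 0.19, limma adjusted p = 0.0494) and was lost under 3 other settings of the fit (adjusted p = 0.0502 to 0.0867) and without any 1 of 5 libraries (adjusted p = 0.0859 to 0.259), standing at 0.34 without LL2 CAF 1. Over the 7 genes tested, 8 of 21 steps between neighbouring models passed the test. This count includes steps of *Ccl12*, *Ccl3* and *Ccl4*, which reached the minimum only with EO771 CAFs. They had to differ from EO771, and their steps support nothing. Among the other 4 genes, only the steps named above for *Ccl2*, *Ccl7* and *Csf1* passed. EO771 CAFs lay above all others for 4 genes (17.3% of all genes tested did), 3 of which reached the minimum only with EO771 CAFs. LL2 CAFs lay above all others for 2 genes (9.38%) and below for *Ccl4* (7.79%), MC38 CAFs below for 1 (19.8%) and Pan02 CAFs below for 3 (15.4%).

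**Figure D3:**
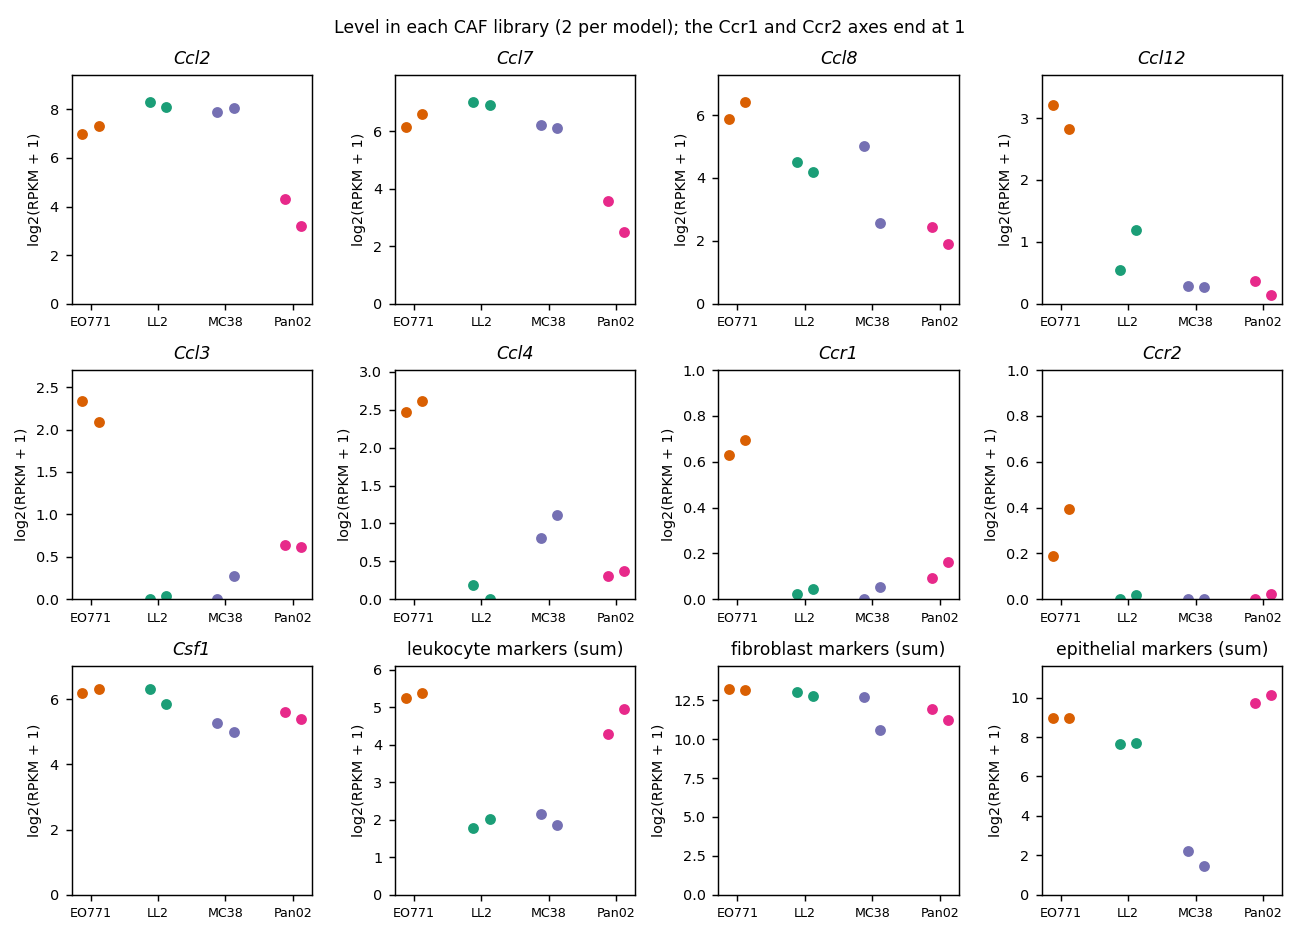
Log2(RPKM + 1) of the 9 genes and of the summed leukocyte, fibroblast and epithelial markers in each of 8 CAF libraries (points, libraries 1 and 2 from left to right, by model). *Ccl2* is at 8.06 to 18.9 RPKM in Pan02 and at 124 RPKM or more elsewhere, and the leukocyte sum is highest in EO771 (36.7 to 40.4 RPKM); its second place in Pan02 rests on *Cd53*.

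The 7 genes tested in CAFs all differed among the 4 models, as did 80.4% of all 13598 genes tested. Of these, *Ccl12*, *Ccl3* and *Ccl4* reached the minimum only with the EO771 libraries, where they were high, so that they had to differ and their calls in any model support nothing. Of the other 4 genes, 3 were higher in EO771 CAFs than the mean of the other 3 models and 0 lower (24.5% of all genes were higher and 27.9% lower). *Ccl8* was higher by 2.70 (standard error 0.56, limma adjusted p = 0.00581), *Ccl7* by 0.99 (0.27, 0.0173) and *Csf1* by 0.68 (0.16, 0.00894). The values of *Ccl12*, *Ccl4* and *Ccl3* were 2.55, 2.08 and 1.95. *Ccl2* did not pass (0.50, limma adjusted p = 0.162). Without EO771 CAF 2, *Ccl7* (0.76, limma adjusted p = 0.157), *Ccl8* (2.44, 0.0607) and *Csf1* (0.63, 0.0895) did not pass. *Csf1* did not pass without EO771 CAF 1 either (limma adjusted p = 0.0611). With both Pan02 libraries left out, *Ccl8* (2.07, limma adjusted p = 0.0325) and *Csf1* (0.64, limma adjusted p = 0.0207) were still higher, but *Ccl2* was then lower (-0.95, limma adjusted p = 0.00518) and *Ccl7* did not pass (-0.19, limma adjusted p = 0.351). Monocyte and macrophage markers summed to 281 to 365 RPKM in EO771 CAFs against 44.3 to 188 RPKM in other CAFs, and without *Plac8* to 201 to 254 RPKM against 19.2 to 76.9 RPKM. Of those that reached the minimum outside EO771, 6 of 8 were higher in EO771 CAFs, as were 2 of 2 leukocyte markers, and their part in these differences was not tested.

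In LL2 CAFs, *Ccl2* (1.93, standard error 0.28, limma adjusted p = 0.00206) and *Ccl7* (1.77, standard error 0.27, limma adjusted p = 0.00252) were higher, where 14.7% of all genes were. Of the 4 genes, 0 were lower in LL2, where 18.3% of all genes were. *Ccl3* (-0.97) and *Ccl4* (-1.19) stood low against a mean that includes EO771, and neither passed the minimum without EO771. In MC38 CAFs, *Ccl2* (1.60, standard error 0.28, limma adjusted p = 0.00194) and *Ccl7* (0.71, standard error 0.27, limma adjusted p = 0.0495) were higher, where 28.6% of all genes were. *Csf1* was lower (-0.81, limma adjusted p = 0.00311), where 31.3% were. *Ccl12* (-1.11) and *Ccl3* (-0.82) stood low against the same mean, while MC38 did not pass the test against Pan02 for *Ccl12* (limma adjusted p = 0.958) or against LL2 for *Ccl3* (limma adjusted p = 0.572). The *Ccl7* call in MC38 was lost under most alternatives (limma adjusted p up to 0.143). With both Pan02 libraries left out, *Ccl2* in MC38 did not pass (0.29, limma adjusted p = 0.19) and *Ccl7* was lower there (-0.50, limma adjusted p = 0.0342), while *Ccl2* (0.66, limma adjusted p = 0.0246) and *Ccl7* (0.69, limma adjusted p = 0.0168) stayed higher in LL2. With both EO771 libraries left out, *Ccl2* and *Ccl7* were higher in LL2 (2.36 and 2.36, limma adjusted p = 0.00244 and 0.00181) and in MC38 (1.99 and 1.17, limma adjusted p = 0.00228 and 0.0133). *Csf1* was then higher in LL2 (0.76, limma adjusted p = 0.0227) and lower in MC38 (-0.66, limma adjusted p = 0.0222).

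In Pan02 CAFs, 3 of the 4 genes that reached the minimum outside EO771 were lower and 0 higher, where 26.5% of all genes were lower and 27.1% higher. These were *Ccl2* (-4.03, standard error 0.28, limma adjusted p = 2.95e-05), *Ccl7* (-3.47, 0.27, 4.94e-05) and *Ccl8* (-2.59, 0.56, 0.00649). The values of *Ccl12* and *Ccl4* were -1.13 and -0.86. With both EO771 libraries left out, 4 members were tested and *Ccl2* (-4.35, limma adjusted p = 0.000131), *Ccl7* (-3.53, limma adjusted p = 0.000222) and *Ccl8* (-1.90, limma adjusted p = 0.0434) were still lower. *Ccl8* lost the call without Pan02 CAF 2 (-2.31, limma adjusted p = 0.0575). Of the fibroblast markers, 3 of 9 (*Col3a1*, *Fap*, *Thy1*) were lower in Pan02 CAFs, with a median of -0.84 over the 9, and 4 of 5 epithelial markers were higher. Their part in the lower chemokine levels was not tested.

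Tumors and CAFs were read from separately normalized tables, and the tumor fragments went into preservative whereas CAFs were digested and sorted, so their levels are only set side by side, per length and on the same transcript. *Ccl2* stood at 259 to 440 RPKM in LL2 tumors and 277 to 319 RPKM in LL2 CAFs, and at 222 to 259 RPKM in MC38 tumors and 234 to 267 RPKM in MC38 CAFs. In EO771 it stood at 40.2 to 70.8 RPKM in tumors and 124 to 159 RPKM in CAFs. Among all gene symbols it held percentiles 99.2 to 99.6 in tumors and 99.0 to 99.4 in CAFs of LL2 and MC38. *Csf1* held percentiles 86.7 to 95.5 in tumors and 90.9 to 97.1 in CAFs of the 4 models.

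*Ccl7* held higher percentiles in CAFs than in tumors of EO771 (96.0 to 97.1 against 87.2 to 93.3) and LL2 (98.1 to 98.5 against 97.4 to 97.9), and its ranges overlapped in MC38 and Pan02. *Ccl8*, *Ccl12*, *Ccr1* and *Ccr2* ranked lower in CAFs than in tumors of all 4 models. *Ccl8* stood at 69.1 to 2311 RPKM in tumors of the 4 models and at 2.71 to 83.6 RPKM in CAFs, and the ranges of the same model did not overlap. In Pan02 it held percentiles 98.2 to 100 in tumors and 59.0 to 63.7 in CAFs. *Ccl12* stood at 9.38 to 85.7 RPKM in tumors and at 0.105 to 8.27 RPKM in CAFs. *Ccr1* (4.02 to 25.2 RPKM) and *Ccr2* (3.48 to 22.6 RPKM) in tumors compared with at most 0.618 and 0.313 RPKM in CAFs. *Ccl3* and *Ccl4* were higher in tumors than in CAFs of LL2, MC38 and Pan02, whereas in EO771 *Ccl3* was 1.33 to 2.16 RPKM in tumors and 3.24 to 4.06 RPKM in CAFs. *Ccl4* in EO771 overlapped in RPKM (3.89 to 5.72 in tumors, 4.57 to 5.14 in CAFs) but ranked higher in CAFs (percentiles 65.6 to 67.1 against 60.9 to 64.9).

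**Figure D4:**
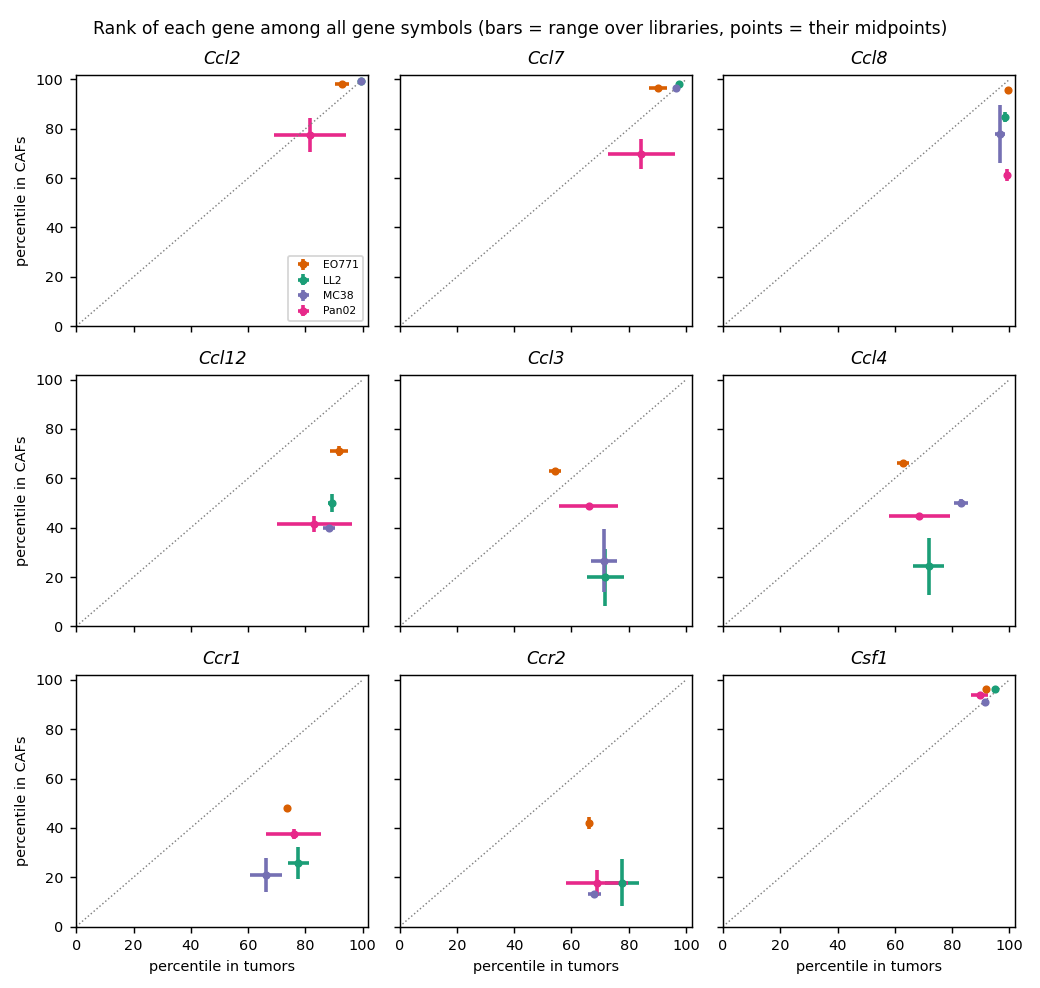
Percentile of each gene among all gene symbols in tumors (x axis) and CAFs (y axis) of the same model; bars span the libraries, points are midpoints and the dotted line marks equal rank. *Ccl2*, *Ccl7* and *Csf1* lie near or above the line outside Pan02, and *Ccl8*, *Ccl12*, *Ccr1* and *Ccr2* lie below it in all 4 models.

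How the genes varied together across tumors is described here without a test. *Ccl2* and *Ccl7* varied together over the 15 tumors (Pearson r of log2(CPM + 1) = 0.90), in the deviations from the model means (0.95, and 0.81 over the 12 tumors without Pan02), and over the 8 CAF libraries (0.98). *Ccl2* and *Ccl8* did not across tumors (-0.03), although their deviations within models correlated (0.62, but 0.20 within models without Pan02). *Ccl8* followed *Ccr1* (0.86 across tumors, 0.92 within models, 0.84 within models without Pan02) and *Csf1r* (0.86 and 0.86). *Ccl3* followed *Ccl4* (0.77 across tumors, 0.78 within models, 0.55 within models without Pan02). All 36 pairs had a positive correlation within models, but 26 of 36 did once the 3 Pan02 tumors were left out. Tumors of 1 model share their line, and Pan02 tumor 1 was the lowest of its 3 tumors for all 9 genes.

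**Figure D5:**
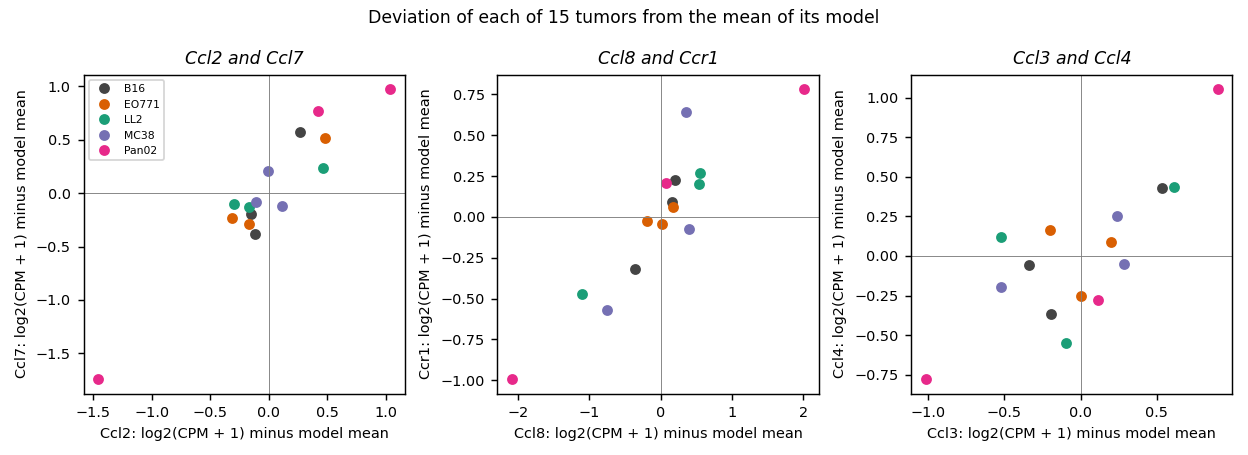
Deviation of each of 15 tumors from the mean of its model, in log2(CPM + 1), for 3 pairs of genes. Pan02 tumor 1 lies low in each panel, and the correlations without them are 0.81 for *Ccl2* and *Ccl7*, 0.84 for *Ccl8* and *Ccr1* and 0.55 for *Ccl3* and *Ccl4*.

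The genes most like each member over the 15 tumors, among those with a mean of at least 10 CPM, also differed. For *Ccl8* they were *Clec7a* (the beta-glucan receptor Dectin-1 of macrophages, r = 0.96), *Cd84* (0.94) and *Fcgr2b* (the inhibitory Fc receptor, 0.93), and *Fcgr2b* (0.95) was also among the 3 for *Ccr1*, after *Ap2a2* (0.96) and *Nxpe5* (0.96). For *Ccr2* they were *Myo1g* (a myosin of hematopoietic cells, 0.93), *Evi2b* (0.92) and *Nrros* (0.92), and for *Ccl12* *Lilrb4a* (an inhibitory receptor of myeloid cells, 0.91), *Nckap1l* (0.88) and *Frmd4b* (0.88). For *Csf1* they were *Hoxd8* (0.98), *Prrx1* (a homeobox gene of mesenchymal cells, 0.97) and *Ppp1r18* (0.97), and for *Ccl2* *Igfbp4* (a binding protein of insulin-like growth factors, 0.93), *Layn* (0.93) and *Erp44* (0.92). *Ccl7* was followed by *Hopx* (0.88), *Siglec1* (0.86) and *Wipf1* (0.85), *Ccl4* by *Rfx5* (0.87), *Acod1* (0.87) and *Oas2* (0.86), and *Ccl3* by *Nudt13* (0.87), *Rnft1* (0.86) and *Sfi1* (0.84). By rank correlation, 6 of these 27 stayed among the top 3.

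The remaining genes of the pathway were counted whole: 22 further CC and CX3C chemokines, their receptors and colony-stimulating factors, of which 20 were tested in tumors. In B16, 13 of the 20 were lower and 0 higher (31.6% and 31.9% of all genes tested). *Il34*, the second ligand of *Csf1r*, measured 1.18, 1.62 and 1.05 CPM in B16 and 14.5 CPM or more in every other tumor (B16 against the rest -4.96, standard error 0.31, edgeR adjusted p = 1.05e-08). It was highest in EO771, at 98.1, 97.9 and 120 CPM (2.98, standard error 0.18, edgeR adjusted p = 2.38e-08). *Il34* also counts below as higher in Pan02, LL2 and MC38 tumors, on a log2 scale where the low B16 values lower the mean of the others. Its mean there (27.0, 29.1 and 31.1 CPM) was below the mean CPM of the other models (41.7, 41.2 and 40.7 CPM). *Csf1r* itself was lower in B16 (37.3, 71.8 and 64.3 CPM; -1.87, standard error 0.35, edgeR adjusted p = 0.00041).

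In Pan02 tumors, 15 of the 20 were higher (32.5% of all genes) and 1, *Csf3* (granulocyte colony-stimulating factor), was lower (28.1%). The higher genes included *Ccl11*, *Ccl17*, *Ccl22* and *Ccl24* and the eosinophil receptor *Ccr3*, and *Ccl11* measured 3.42, 25.7 and 97.5 CPM in Pan02 tumors 1, 2 and 3, in the order of *Ccl8*. For all 15 but *Csf3r*, *Cx3cl1* and *Cx3cr1*, Pan02 tumor 1 was the lowest of its model. It held *Ccl24* at 0.293 CPM (15.1 and 113 CPM in tumors 2 and 3) and *Ccr3* at 0.147 CPM (5.40 and 9.84 CPM). Results with a tumor left out are not given for pathway genes. LL2 tumors had 4 higher genes, near the share of all genes (23.3%), and 1 lower, below that share (18.9%). Among the higher genes was *Csf3*, at 3.53, 17.6 and 10.6 CPM in LL2 tumors, against at most 0.385 CPM in the other models. MC38 tumors had 5 higher genes, near the share of all genes (27.0%), and 2 lower (24.4%). *Ccl5*, a ligand of *Ccr1*, was the one of these that was also higher in MC38 CAFs, with 33.0, 65.6 and 47.2 CPM in tumors and 20.1 and 30.4 RPKM in CAFs, against at most 3.23 RPKM in other CAFs. EO771 tumors had 1 higher gene (*Il34*) and 1 lower (*Cx3cl1*), below the shares of all genes (27.2% and 27.0%).

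In CAFs, 13 of the 22 were tested, 5 of which reached the minimum only with EO771 CAFs. Of the other 8, 6 were higher and 1 was lower in EO771 CAFs, where 24.5% and 27.9% of all genes were. *Ccl11* (eotaxin) measured 75.1 and 77.7 RPKM in LL2, 61.9 and 86.6 RPKM in EO771, 30.9 and 11.0 RPKM in MC38 and 7.64 and 5.31 RPKM in Pan02 (-2.71 in Pan02, standard error 0.34, limma adjusted p = 0.000553). *Csf1r* measured 5.45 and 5.15 RPKM in EO771 CAFs and at most 1.14 RPKM in the others, next to the higher leukocyte sum of EO771 CAFs.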

How the data were processed

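RNA was sequenced from 15 whole tumors and 8 CAF samples. Per the labels and the study's methods, poly(A) RNA was prepared without strand information, aligned to mm10 with STAR 2.5.0c and quantified per RefSeq transcript with HOMER. The tumor table holds estimated counts as deposited by the authors, in steps of 0.5, and the CAF table holds RPKM as deposited by the authors. Of 40458 transcripts listed, 2 named no gene and were left out, and 1 transcript stood for each of 24940 symbols, that with the largest mean (69.4% of genes have 1). A further 5 columns of per-sample values matched no sample label and were not used. The tables were normalized separately, and no test was run across them.

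Tumor counts (10035173 to 21946486 per tumor, median 16541399) were rounded, low genes were dropped by filterByExpr and the rest, scaled by the trimmed mean of M values, were tested with edgeR 4.0.16 (quasi-likelihood, 15722 genes, R 4.3.3). CAF values were tested with limma 3.58.1 (trend) on log2(RPKM + 1) for the 13598 genes that reached 1 RPKM in 2 or more libraries, and such fold changes understate those of low genes. P-values were adjusted by Benjamini-Hochberg over all genes tested. DESeq2 1.42.0, other scalings, filters, pseudocounts and transcripts, a replicate block and the removal of each library were tried. Leaving out both Pan02 or both EO771 CAF libraries, and *Cd53* or *Plac8* from marker sums, was chosen after seeing the data. The steps were tested on simulated data.

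Genes and lists were chosen with earlier results of these data known. All 9 genes are named, and for each the 3 genes of highest Pearson r among 10566 with a mean of at least 10 CPM. Of the pathway, *Il34*, *Csf1r* and *Ccl5*, paired with a member, and *Csf3*, with the smallest adjusted p in LL2 tumors, are given with values, and *Ccl11* was added after its values were seen. Ratios to *Ptprc* used log2(CPM + 0.5). Same-numbered replicates were not paired by the labels, and their deviations from group means correlated over 0.1 in 9 of 30 pairs in tumors and 6 of 12 in CAFs. With 2 libraries per CAF model, the deviations of replicate 2 mirror those of replicate 1. Each CAF correlation is therefore counted for both replicates, and the 12 are not separate values. An item withheld for evaluation is not reported here.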

Additional observations from a re-analysis of the deposited data

Results flagged for a closer look

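In 7 of 28 combinations of gene and model, every tumor of a model lay on one side of the mean of the other 3 models and both of its CAF libraries on the other side. The values are differences on the log2(value + 1) scale, with B16 left out, and the difference between tumors and CAFs was not tested. No share over all genes was set beside the 7 of 28, so the number is no result about these genes. EO771 accounted for 5 of them, each below that mean in tumors and above it in CAFs, as values and not as calls. *Ccl3* stood at -1.75 in EO771 tumors and 1.95 in EO771 CAFs, a gap of 3.70. *Ccl4* stood at -1.02 and 2.08, a gap of 3.11, *Ccl7* at -0.97 and 0.99, a gap of 1.96, and *Ccl2* at -1.32 and 0.50, a gap of 1.82. With both Pan02 CAF libraries left out, the EO771 CAF values were -0.95 for *Ccl2* and -0.19 for *Ccl7*. The place of EO771 CAFs above the mean for *Ccl2* and *Ccl7* thus rested on the low Pan02 CAFs. *Csf1* stood at -0.05 and 0.68, a gap of 0.73. Its tumor and CAF values here are of different transcripts, each the one with the largest mean in those samples. In the other direction, *Ccl3* stood above that mean in tumors and below it in CAFs of LL2 (0.75 and -0.97, a gap of -1.72) and of MC38 (0.83 and -0.82, a gap of -1.65). In CAFs, *Ccl3* and *Ccl4* reached the minimum level only with the EO771 libraries. That was bound to set EO771 CAFs high, and other CAFs low against a mean that includes EO771. The combinations of these genes therefore support nothing. The comparisons of 1 gene share libraries, since each model enters the mean against which the others are set.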

How the results depend on the processing

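Of the counts of genes called among or in models, 32 of 33 in tumors and 32 of 35 in CAFs stayed within 1.5 times under settings that kept every library or left out a whole CAF model. With total-count scaling, 4 genes passed in MC38 tumors in place of 2. Without both EO771 CAF libraries, where *Ccl12*, *Ccl3* and *Ccl4* no longer passed the filter and 4 of the 9 genes did, 3 differed among models in place of 7, and 3 passed in MC38 and 3 in Pan02 CAFs in place of 5 each. Leaving out 1 library gave 2 to 6 genes in EO771 tumors, 2 to 6 in MC38 tumors, 1 to 5 in Pan02 tumors, 2 to 7 in EO771 CAFs and 3 to 5 in MC38 CAFs. The highest tumor counts came without Pan02 tumor 1 (6, 6 and 5), the lowest in Pan02 without Pan02 tumor 3, and the lowest in EO771 CAFs without EO771 CAF 2; MC38 CAFs fell to 3 without EO771 CAF 1 or 2. A left-out CAF library leaves a lone sample that is assumed to vary like the others. In MC38 tumors *Ccl12* turned to -0.018 on the longest transcript and *Ccr2* to 0.038 with total-count scaling and 0.035 with the replicate block, and *Csf1* in Pan02 tumors turned to -0.012 with total-count scaling. With log2(RPKM + 0.1), *Ccl12* in LL2 CAFs turned to 0.035, *Ccl3* in Pan02 CAFs to 0.62 and *Ccl4* in MC38 CAFs to 0.66. Leaving out 1 library in turn moved tumor values across 0 for *Ccl12* in MC38 (-0.14 to 0.23) and Pan02 (-0.078 to 1.20), *Ccl3* in B16 (-0.087 to 0.48) and Pan02 (-0.29 to 0.75), *Ccl4* in LL2 (-0.033 to 0.50) and Pan02 (-1.10 to 0.15), *Ccl7* in Pan02 (-0.49 to 0.40), *Ccl8* in LL2 (-0.11 to 0.49) and *Csf1* in Pan02 (-0.13 to 0.24), and CAF values for *Ccl12* in LL2 (-0.64 to 0.0058), *Ccl4* in MC38 (-0.19 to 0.11) and *Ccl8* in LL2 (-0.10 to 0.72) and MC38 (-1.65 to 0.81). The replicate block lost *Ccl7* in MC38 CAFs (adjusted p = 0.0592) and gained *Csf1* in LL2 CAFs (0.0443) and *Ccl3* in MC38 tumors (0.039); the numbers are not known to pair samples. Neighbours that differed numbered 4 to 12 in tumors. In CAFs their number moved as well, and it included steps of *Ccl12*, *Ccl3* and *Ccl4*, which support nothing. The cause of these changes was not tested, and no share over all genes was set beside the counts with a library left out. With 2 CAF libraries per model and values of 0 to 15 smallest steps for *Ccl3* outside EO771, small differences were not detectable.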
